A study of Mus musculus with 3 samples.

Results

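Cells rich in pancreatic digestive-enzyme RNA were present in 2 of 3 single-cell libraries made from mouse small intestine, and they are described here gene by gene at 7 days after birth (P7) and in the embryo (E15.5, in days after conception). The cells were chosen by measured values: a cell was taken as acinar if Ctrb1, the gene for chymotrypsinogen B, held at least 0.5% of its UMIs and if it also had at least 5 UMIs of Cpa1, the gene for procarboxypeptidase A1. A UMI (unique molecular identifier) tags 1 captured RNA molecule, so these are counts of molecules read at their 3′ ends. The rule found 20 of 8391 cells at P7 (0.238%, exact Clopper-Pearson 95% interval 0.146 to 0.368%) and 64 of 8447 cells at E15.5 (0.758%, 0.584 to 0.967%), which makes 84 of the 28436 cells of the series. The E17.5 library held none among 11598 cells, which allows a share of up to 0.0259%.

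The study asked how the gut elongates, and each stage was 1 library of wild-type, untreated small intestine. Epithelial and mesenchymal fractions were pooled and sorted as live cells positive for the epithelial surface protein Epcam, or negative for Epcam, CD31 and CD45. The labels name no pancreas, and the number, sex and strain of the animals behind a library are not given in the sources used here. Because a stage is 1 library, no test between stages was possible: a difference between P7 and E15.5 cannot be told apart from a difference between 2 libraries, and the intervals given below cover counting error only.

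Acinar cells are the exocrine cells of the pancreas. They make digestive enzymes as inactive zymogens, fold them in the endoplasmic reticulum (ER), pack them into zymogen granules and release them into ducts that open into the duodenum, mainly after a meal. In the mouse embryo acinar cells arise from multipotent tip cells of the branching pancreas, and their enzyme genes are driven by PTF1, a complex of the basic helix-loop-helix factor Ptf1a, a partner such as Tcf3, and the acinar factor Rbpjl. PTF1 is known to bind a paired site, an E-box (CACCTG) and a TC-box (TTTCCC), in the promoters of acinar enzyme genes.

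To show what such a site looks like at genes of these cells, both motifs were searched on either strand in RefSeq promoter windows of 300 bases (250 before and 50 after the start site, GRCm38.p6). CACCTG occurred in 15 of 27 windows of the acinar enzyme genes (55.6%), against 20.03% of 27025 windows of all genes. Those 15 include neighbouring, related trypsinogen genes (Prss1, Prss2, Prss3, Gm5771, Gm10334, Try4 and 2210010C04Rik), so the 27 windows are not independent. TTTCCC occurred in 9 of those 27 (33.3%), against 25.2% of all. The 2 motifs lying exactly 4 bases apart in the order CACCTGNNNNTTTCCC, or its reverse complement, occurred in 4 of the 27025 windows, at Prss1, Gm5771, Cela1 and Esp18. The first 3 of these are enzyme genes of the list used here (11.1% of 27 windows). A match is a description of letters and not evidence of binding. The windows of those 3 genes, and of the trypsinogen gene Prss2, which holds both motifs farther apart, follow in the direction of transcription, with each CACCTG and each TTTCCC, on either strand, in capitals.
Prss1 (chr6:41458680-41458979, plus strand): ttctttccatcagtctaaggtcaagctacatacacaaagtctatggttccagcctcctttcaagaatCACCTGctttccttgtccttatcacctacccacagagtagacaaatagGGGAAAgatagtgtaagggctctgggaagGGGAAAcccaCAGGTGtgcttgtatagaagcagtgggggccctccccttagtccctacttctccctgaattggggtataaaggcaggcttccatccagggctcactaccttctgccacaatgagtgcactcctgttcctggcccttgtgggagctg
Gm5771 (chr6:41392106-41392405, plus strand): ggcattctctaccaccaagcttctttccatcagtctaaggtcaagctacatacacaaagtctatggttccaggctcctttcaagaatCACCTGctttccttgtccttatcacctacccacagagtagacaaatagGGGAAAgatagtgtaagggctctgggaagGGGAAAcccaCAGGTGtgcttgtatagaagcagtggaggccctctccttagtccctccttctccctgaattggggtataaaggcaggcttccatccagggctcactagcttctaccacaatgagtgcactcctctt
Cela1 (chr15:100687871-100688170, minus strand): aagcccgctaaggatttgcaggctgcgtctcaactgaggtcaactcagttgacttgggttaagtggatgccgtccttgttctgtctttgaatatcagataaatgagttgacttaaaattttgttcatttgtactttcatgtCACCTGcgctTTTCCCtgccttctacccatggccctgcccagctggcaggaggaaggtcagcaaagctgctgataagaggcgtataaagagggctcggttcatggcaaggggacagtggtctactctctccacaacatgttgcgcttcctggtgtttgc
Prss2 (chr6:41521526-41521825, plus strand): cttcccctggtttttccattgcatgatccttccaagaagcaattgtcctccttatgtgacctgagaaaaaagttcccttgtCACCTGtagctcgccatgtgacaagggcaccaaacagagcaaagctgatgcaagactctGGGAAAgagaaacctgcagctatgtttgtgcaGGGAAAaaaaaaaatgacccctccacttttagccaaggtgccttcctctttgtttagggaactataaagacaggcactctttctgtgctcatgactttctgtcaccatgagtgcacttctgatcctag

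Prss1 and Gm5771 are trypsinogen genes of the same cluster whose windows were identical at 273 of 280 aligned bases (97.5%), so their matches are not independent. The Cela1 window, on another chromosome, was no closer to Prss1 than 30.9% at its best ungapped offset, and it carries the pair on the coding strand, whereas Prss1 and Gm5771 carry the reverse complement.

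The rule used Ctrb1 and Cpa1, and their levels are therefore descriptions. At P7 the acinar cells stood well clear of it: the lowest held 3.49% Ctrb1, while the highest cell outside held 1.67% and had 0 Cpa1 UMIs. At E15.5 the rule ran through a continuum. The lowest cell inside held 0.555% Ctrb1 with 20 Cpa1 UMIs, and the nearest outside held 0.488% with 15 Cpa1 UMIs and 2.60% with 3.

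Clps and Pnliprp1, the acinar markers that the rule did not use, were present in every cell. Clps, the gene of colipase, was detected in all 20 P7 cells (lowest 13742, median 77698, highest 176329 counts per 1000000 UMIs, CPM) and in all 64 E15.5 cells (501, 7732 and 45723 CPM). Pnliprp1, a pancreatic lipase-related gene, was also detected in every one of them, at 7769 to 85373 CPM at P7 and 1341 to 34625 CPM at E15.5. Of the 10 pancreatic duct markers 7 had a UMI at P7 and 9 at E15.5, with summed levels of 161 CPM at P7 and 254 CPM at E15.5. Without mixed cells 3 of the 10 had a UMI at P7 and 9 at E15.5, with sums of 100.5 and 239 CPM. All 6 gastric and Brunner gland markers present in the files were at 0 at P7, and 5 of 6 at E15.5. Of the 6 liver and biliary markers 4 had a UMI at each stage, and Alb had none. At E15.5 they summed to 1178 CPM (1201 CPM without mixed cells), with at least 278 CPM in every cell, against 124 CPM in the other E15.5 cells. At P7 they summed to 619 CPM (86.1 CPM without mixed cells), against 564 CPM in the other P7 cells.

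Some acinar cells carried RNA of another cell type, and results are given with and without them. These mixed cells were defined, after the data were seen, as cells in which the markers of 1 other class (intestinal epithelium, mesenchyme, smooth muscle, neurons and glia, islets or erythroid cells) held at least 0.5% of the UMIs. At P7 there were 4 of 20 mixed cells, 3 with intestinal epithelial markers (0.961, 4.97 and 6.87%) and 1 with mesenchymal markers (2.16%). At E15.5 there were 7 of 64, 4 with smooth muscle, 2 with erythroid and 1 with islet markers. Scrublet, which scores cells against simulated doublets, marked 0 of the 20 P7 cells and 3 of the 64 E15.5 cells, 2 of them mixed. Summed intestinal epithelial markers stood at 15641 CPM in all P7 acinar cells and at 904 CPM without the mixed cells, against 34224 CPM in the other P7 cells. In E15.5 acinar cells they summed to 87.1 CPM with the mixed cells and 71.0 CPM without.

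Ctrb1 RNA was also found in cells outside the rule. A Ctrb1 UMI was found in 17.7% of the other P7 cells (77.8 CPM, median depth 14022 UMIs) and in 21.1% of the other E15.5 cells (32.9 CPM, median depth 8459 UMIs). Against this background Ctrb1 stood at 187106 CPM in P7 acinar cells and 29606 CPM in E15.5 acinar cells. The 3 libraries carry identical lists of barcode names, which match the number of cells of the E15.5 library alone, so barcodes shared between libraries could not be counted.

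P7 and E15.5 acinar cells differed widely in how much of their RNA was enzyme RNA. The acinar enzyme list (zymogens, lipases, nucleases, amylases and the trypsin inhibitor Spink1) held a median of 69.9% of the UMIs of a P7 cell, with a lowest value of 10.5% and a highest of 79.4%. In E15.5 cells the median was 5.11%, the lowest 1.22% and the highest 25.0%. The ranges overlapped only through 3 of the 4 mixed P7 cells: the 16 unmixed P7 cells lay between 56.2 and 79.4%. Over summed UMIs the list held 51.2% at P7 (71.0% without mixed cells) and 6.65% at E15.5 (6.77%).

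**Figure D1:**
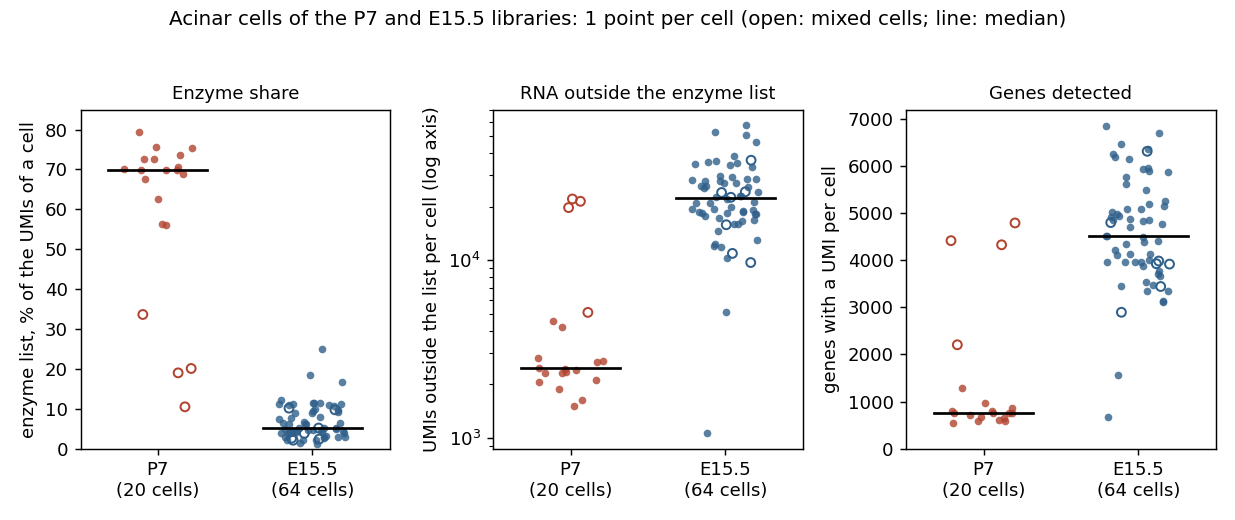
Single acinar cells at P7 and E15.5: share of UMIs held by the enzyme list (left, %), UMIs outside the list (middle, log axis) and genes with a UMI (right), with 1 point per cell, open circles for mixed cells and a line at the median. The 16 unmixed P7 cells sit at 56.2% or more enzyme RNA, while no E15.5 cell exceeds 25.0%, and the unmixed P7 cells hold fewer genes (542 to 1285) than nearly all E15.5 cells.

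The rest of the transcriptome was thinner at P7. A P7 acinar cell had a mean of 11147 UMIs, of which 5706 were of enzymes and 5441 of other genes, while an E15.5 cell had a mean of 25488 UMIs, 1695 of enzymes and 23792 of others. Without mixed cells the UMIs of other genes averaged 2529 per P7 cell and 24192 per E15.5 cell. P7 cells had a median of 762.5 detected genes (542 to 4793) and E15.5 cells 4521.5 (680 to 6854). The deposited P7 library holds no cell under 507 genes, so the unmixed P7 cells, at 542 to 1285 genes, sit just above the lower edge of what was deposited. Whether acinar cells under that edge were left out was not tested. Mitochondrial genes held a median of 0.618% of UMIs at P7 and 3.06% at E15.5.

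Genes were compared over UMIs summed across the acinar cells of a library and scaled to CPM. A gene entered with a mean of at least 50 CPM over both stages and at least 20 UMIs in total, a value under 3 UMIs was set to 3, and a gene is called higher or lower at P7 when it differed at least 2-fold. Of 1969 genes tested, 200 were higher at P7 (10.2%) and 1288 lower (65.4%). Without mixed cells 46 of 1565 were higher (2.94%) and 1445 lower (92.3%). With the enzyme list left out of the total, 328 of the 1969 were higher (16.7%) and 676 lower (34.3%), and with the median ratio of the tested genes set to 1, 457 were higher and 380 lower. With both the enzyme list and the mixed cells left out, 88 of 1565 were higher (5.62%) and 537 lower (34.3%). Against that background 24 of the 26 tested genes of the enzyme list were higher at P7, and 1 was lower (Ctrc). Their median log2 ratio was 3.86 (4.37 without mixed cells), against -1.49 (-2.38) over all tested genes. Leaving out Ctrb1 and Cpa1, 22 of 24 were higher, with a median of 4.19.

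**Figure D2:**
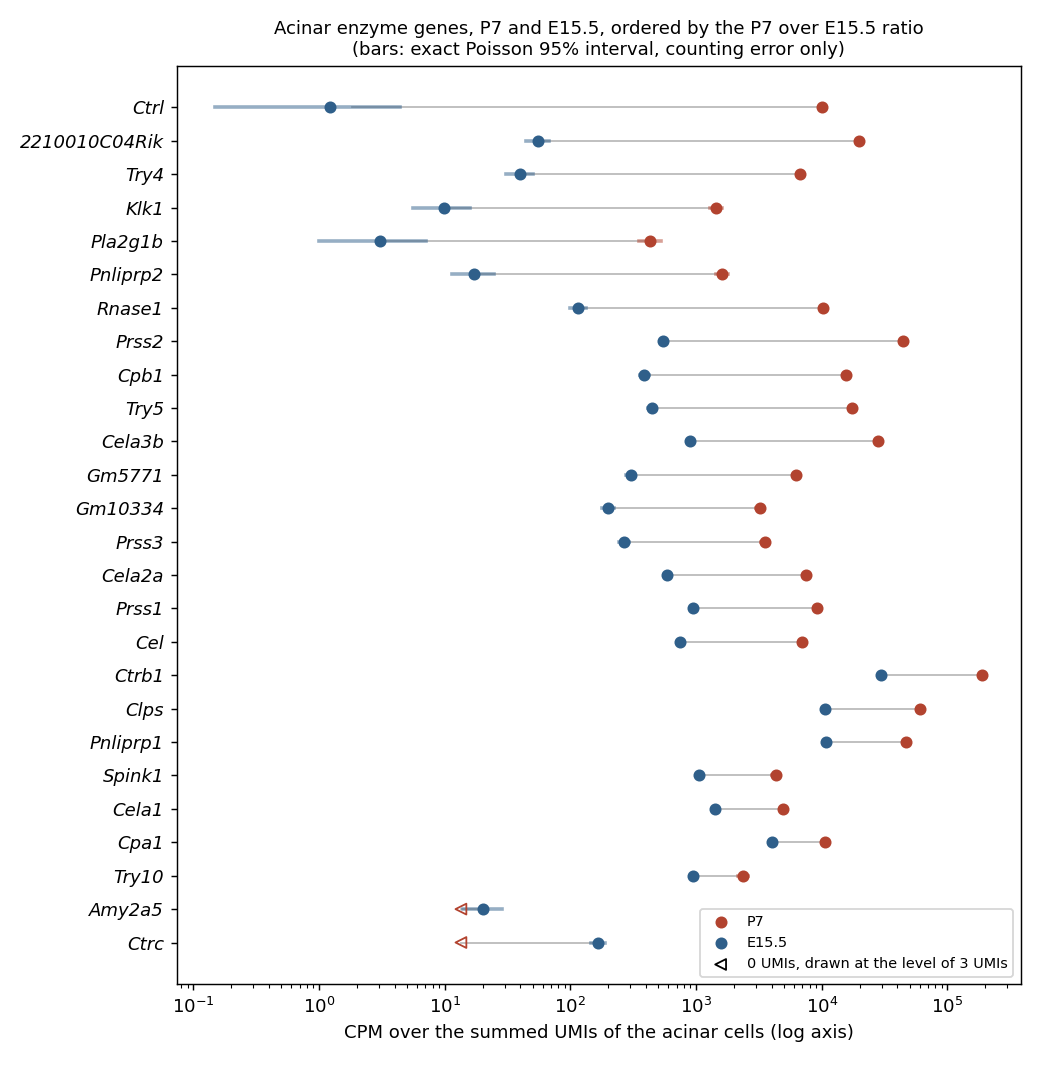
CPM of the acinar enzyme genes named in the text with at least 20 UMIs, over the summed UMIs of 20 P7 cells (red) and 64 E15.5 cells (blue), on a log axis, ordered by the ratio of P7 over E15.5. Bars are exact Poisson 95% intervals, and triangles mark genes with 0 UMIs. Genes at the top (Ctrl, 2210010C04Rik, Try4, Klk1, Pla2g1b and Pnliprp2) lie at 55.2 CPM or less at E15.5, while Cpa1 and Try10, near the bottom, are 2.64-fold apart or less.

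The enzyme genes did not move by 1 common factor. Those already abundant at E15.5 were higher by small factors at P7: Ctrb1 (chr8:111686519-111691010, GRCm38, minus strand) by 6.32-fold, Clps by 5.66-fold, Pnliprp1 by 4.33-fold, Cela1 by 3.47-fold and Cpa1 (chr6:30639218-30645363, plus strand) by 2.64-fold. Ctrb1, Clps, Pnliprp1, Cela1, Cpa1 and Cel were each detected in all 64 E15.5 cells. Klk1 was higher by 146-fold, Try4 by 169-fold and 2210010C04Rik by 357-fold. A gene rare at E15.5 could enter only through a high P7 level, so large ratios among those tested were fixed by the minimum on CPM. Pnlip (5 UMIs at P7 and 2 at E15.5) and Amy2a5 (0 at P7 and 33 at E15.5) were also rare at E15.5 and did not enter. Ctrl, 2210010C04Rik, Try4, Klk1, Pnliprp2 and Pla2g1b were detected in 2, 17, 18, 13, 22 and 5 of the 64 E15.5 cells.

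Trypsinogens are the zymogens whose active form, trypsin, activates the other pancreatic zymogens. Their genes lie in 1 cluster of 11 genes over 560 kb (chr6:40964754-41525079, GRCm38). Prss2 was the most abundant of them at P7, at 5931, 56513 and 81259 CPM in the lowest, median and highest P7 cell and at 0, 166 and 11489 CPM in E15.5 cells. In 19 of 20 P7 cells it was above the highest E15.5 cell. Summed, Prss2 stood at 44168 CPM at P7 and 550.5 CPM at E15.5, a log2 ratio of 6.33 (95% counting interval 6.23 to 6.43).

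The trypsinogen-like gene 2210010C04Rik went furthest within the cluster. It had a median of 26261 CPM per P7 cell (3968 to 39247) and of 0 per E15.5 cell (0 to 2308), so that no P7 cell overlapped any E15.5 cell. Its log2 ratio was 8.48 (8.18 to 8.80), and 81.1% of its 90 E15.5 UMIs came from 5 cells. In cells thinned to 2000 UMIs it was detected in 20 of 20 P7 cells and 6 of 63 E15.5 cells, and in 0.122% of other P7 cells and 0 of 8303 other E15.5 cells, which allows a share of cells with a UMI at that depth of up to 0.0361% and does not limit the share that express the gene. Before thinning it was detected in 20 of 20 P7 cells (median depth 8271.5 UMIs) and 17 of 64 E15.5 cells (23184 UMIs), and in 0.776% of other P7 cells (14022 UMIs). Try5 also separated all P7 cells (4595 to 36751 CPM) from all E15.5 cells (0 to 3551 CPM).

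Try4 had a log2 ratio of 7.40 (7.04 to 7.78), Gm5771 of 4.38, Gm10334 of 4.01, Prss3 of 3.71 and Prss1 of 3.27. Try10 moved least in the cluster, at 2359 CPM at P7 and 942 CPM at E15.5, a log2 ratio of 1.32 (1.18 to 1.47), and no P7 cell lay above the highest E15.5 cell. The gene 1810009J06Rik had 6 UMIs in P7 acinar cells and 0 in E15.5 acinar cells. The split among near copies is uncertain: in the last 200 bases, where these reads fall, Try4 and Try5 are 96.5% identical and Prss1 and Gm10334 92%. Whether reads that match more than 1 copy were dropped was not tested. The family sum stood at 112625 CPM at P7 and 3753 CPM at E15.5 (log2 4.91, 4.87 to 4.95).

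Among the chymotrypsinogens, which cut proteins after large hydrophobic residues, the largest ratio of all enzymes was that of Ctrl. Ctrl had 1044 CPM in the lowest P7 cell, 11686 in the median and 25996 in the highest, while 62 of 64 E15.5 cells had 0 and the highest had 79.0 CPM. Its sums were 2228 UMIs (9994 CPM) at P7 and 2 UMIs (1.23 CPM) at E15.5, a log2 ratio of 12.41 with the E15.5 value set to 3 UMIs, and a counting interval of 11.14 to 16.04 from the counts themselves. Other P7 cells had a Ctrl UMI in 0.597% of cases and other E15.5 cells in 0.0954%, and after thinning to 2000 UMIs it was found in 20 of 20 P7 acinar cells and 0 of 63 E15.5 acinar cells.

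Ctrb1 held a median of 24.8% of the UMIs of a P7 cell (3.49 to 30.6%) and 2.40% of an E15.5 cell (0.555 to 10.7%). In UMIs per cell it averaged 2086 at P7 and 755 at E15.5, although P7 cells had fewer UMIs in all. Ctrc went the other way, with 0 UMIs at P7 and 271 UMIs at E15.5 (166 CPM, detected in 43 of 64 cells). Ctrc had no UMI in any cell of the P7 or the E17.5 library, so its absence in P7 acinar cells cannot be told apart from an entry that was not counted in that library. A Ctrc transcript of the GENCODE M21 annotation also runs into Cela2a on the same strand, so counts of Ctrc and Cela2a are uncertain.

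Elastases cut proteins after small residues. Cela3b, the most abundant, had 5764, 38618 and 48099.6 CPM in the lowest, median and highest P7 cell and 0, 454 and 7591 CPM in E15.5 cells, a log2 ratio of 4.98 (4.89 to 5.06). In 19 of 20 P7 cells it exceeded every E15.5 cell. Its last 200 bases are 95% identical to those of Cela3a, which was not analysed here, so its level is uncertain. Cela2a stood at 7536 CPM at P7 and 588 CPM at E15.5 (log2 3.68). Cela1, whose E15.5 cells all had it, stood at 4907 CPM at P7 and 1414 CPM at E15.5 (log2 1.80), and 7 P7 cells were above the highest E15.5 cell.

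The carboxypeptidases trim amino acids from the ends of peptides, and the genes Cpb1 and Cpa1 parted widely. Cpb1 had a log2 ratio of 5.32 (5.20 to 5.45), at 15519.7 CPM at P7 and 388 CPM at E15.5, with 62.9% of its E15.5 UMIs in 5 cells. Cpa1 had 1.40 (1.33 to 1.47), at 10675 CPM at P7 and 4043 CPM at E15.5, and 7 P7 cells lay above the highest E15.5 cell. In UMIs per cell Cpa1 averaged 119 at P7 and 103 at E15.5, values that describe a gene used to choose the cells.

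Klk1, a tissue kallikrein that frees kinins from kininogen, and Spink1, which encodes the trypsin inhibitor that guards the gland against early trypsin activity, complete the group. Klk1 was at 125 CPM or more in every P7 cell and at 77.0 CPM or less in every E15.5 cell, and its log2 ratio was 7.19 (6.47 to 8.02). A Klk1 UMI was also found in 10.1% of other P7 cells (median depth 14022 UMIs). Spink1 stood at 4302 CPM at P7 and 1048 CPM at E15.5 (4.11-fold). The ratio of summed trypsinogen to Spink1 RNA therefore differed between the stages, with a log2 ratio of 4.91 for the trypsinogens and of 2.04 for Spink1. Spink1 is not acinar-specific here, since other epithelial cells had 1414 CPM at P7 and 254 CPM at E15.5.

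Of the lipid-digesting genes, all 5 tested were higher at P7, with and without mixed cells, where 10.2 and 2.94% of all tested genes were higher. Pnliprp2 and Pla2g1b, rare at E15.5, entered only through their P7 level, so their direction was fixed by the minimum on CPM. Clps, whose product anchors pancreatic lipase to fat droplets, had a log2 ratio of 2.50 (2.47 to 2.53) and Pnliprp1 of 2.11 (2.08 to 2.15). Cel, the bile salt-activated carboxyl ester lipase that digests milk fat, stood at 6943 CPM at P7 and 743 CPM at E15.5 (log2 3.22). Pnliprp2, a lipase-related enzyme that acts on milk fat and galactolipids in suckling rodents, had 251, 1786 and 5114 CPM in the lowest, median and highest P7 cell, against 0, 0 and 114 CPM at E15.5, a log2 ratio of 6.55 (5.99 to 7.16) with no overlap. The pancreatic phospholipase gene Pla2g1b stood at 431 CPM at P7 and 3.07 CPM at E15.5 (96 and 5 UMIs, log2 7.13, 5.86 to 8.79).

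The classical lipase gene Pnlip had few UMIs at both stages, 5 over 20 P7 cells and 2 over 64 E15.5 cells. Reads of the related Pnlip and Pnliprp1 can be told apart, as their last 200 bases are 68.5% identical. On summed UMIs at P7, Pnliprp1 was at 46546 CPM, Pnliprp2 at 1606 CPM and Pnlip at 22.4 CPM. UMI counts from 3′ ends need no scaling by transcript length.

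All 5 amylase genes of the files were at 0 UMIs in P7 acinar cells, where 3 UMIs would be 13.5 CPM. Amy2a2, Amy2a3, Amy2a4 and Amy2a5 had no UMI in the other 8371 P7 cells either, so their absence cannot be told apart from entries that were not counted in that library. At E15.5 they summed to 63 UMIs (38.6 CPM), of which Amy2a5 had 33 in 21 cells. The last 200 bases of Amy2a2, Amy2a3 and Amy2a4 are identical and those of Amy2a5 96% identical to Amy2a2, so reads of these pancreatic amylases may not have been assignable to 1 gene, and their level is uncertain at both stages. Rnase1, the pancreatic ribonuclease, stood at 10272 CPM at P7 and 115 CPM at E15.5 (log2 6.48, 6.26 to 6.70), with every P7 cell (2589.7 CPM or more) above every E15.5 cell (1589 CPM or less). Its rise was not limited to acinar cells, as its log2 ratio was 4.35 in other epithelial cells. A Rnase1 UMI was found in 17.6% of other P7 cells (median depth 14022 UMIs).

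The make-up of the enzyme RNA differed as well, and because Ctrb1 and Cpa1 chose the cells it is given with and without them. Trypsinogens held 22% of the enzyme UMIs at P7 (95% counting interval 21.8 to 22.2%) and 5.64% at E15.5 (5.51 to 5.78%). Elastases held 7.93% at P7 and 4.35% at E15.5, and Rnase1 2.01% at P7 and 0.173% at E15.5. Lipases with colipase held 22.7% at P7 and 33.4% at E15.5, carboxypeptidases 5.74% at P7 and 10% at E15.5, and chymotrypsinogens 38.5% at P7 and 44.8% at E15.5. With Ctrb1 and Cpa1 left out of the total and of their families, the chymotrypsinogens turned round, at 3.18% at P7 and 0.509% at E15.5. On that total trypsinogens held 35.9% at P7 and 11.4% at E15.5, lipases with colipase 37.0% at P7 and 67.6% at E15.5, and carboxypeptidases 5.96% at P7 and 7.94% at E15.5. Without mixed cells, and over all enzyme UMIs, trypsinogens held 21.9% at P7 and 5.80% at E15.5.

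**Figure D3:**
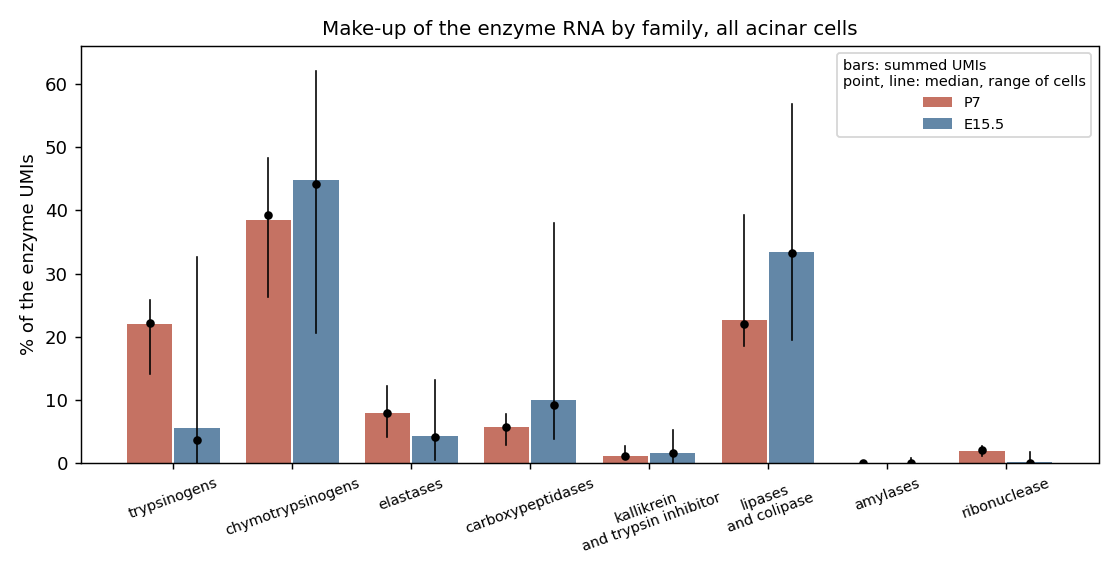
Share of all enzyme UMIs held by each enzyme family (%), in P7 (red) and E15.5 (blue) acinar cells. Bars give summed UMIs, points the median cell and lines the range over cells: the trypsinogen share of a P7 cell runs from 14.1 to 25.9%, and that of an E15.5 cell from 0 to 32.7% with a median of 3.73%.

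The mix ranged less widely over P7 cells than over E15.5 cells for trypsinogens and carboxypeptidases. The trypsinogen share of enzyme UMIs ran from 14.1 to 25.9% over P7 cells and from 0 to 32.7% over E15.5 cells, the carboxypeptidase share from 2.88 to 7.73% at P7 and from 3.89 to 37.9% at E15.5. E15.5 cells have fewer enzyme UMIs, and how much of their spread is counting error was not tested. A range also widens with the number of cells, here 20 at P7 and 64 at E15.5, so the wider E15.5 range alone does not show a greater spread. At P7 the 5 highest of 20 cells, which would hold 25% of a gene's UMIs if these were even, held between 35.4% (Try10) and 66.7% (Pla2g1b). These and the next values count raw UMIs, and the even share takes no account of depth. Depth ran from 5305 to 27649 UMIs over P7 cells and from 1176 to 59259 UMIs over E15.5 cells. How much of the concentration comes from depth was not tested. At E15.5 the 5 highest of 64 cells, which would hold 7.81% if even, held 62.9% of Cpb1, 60.8% of Gm5771, 52.6% of Prss2 and 49.9% of Prss1 UMIs. The share was lower for other enzymes of low level at E15.5, at 38.6% for Prss3, 35.7% for Pnliprp2 and 33.3% for Gm10334. For Cela1 and Pnliprp1 the 5 highest E15.5 cells held 20.7 and 21.4%. At P7, 18 of 20 cells had 20% or more enzyme RNA. At E15.5, 15 of 64 cells had 10% or more enzyme RNA and 1 had 20% or more.

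Across the 20 P7 cells, the enzyme genes whose share of UMIs followed that of Ctrb1 most closely were Cpa1 (Spearman rho 0.76), Klk1 (0.75), Prss2 (0.72), 2210010C04Rik (0.62) and Prss3 (0.61). For Cpa1 they were Ctrb1 (0.76), Cel (0.74), Ctrl (0.72), Prss1 (0.72) and Cela1 (0.71). The mixed cells, which hold less enzyme RNA, enter these values, and over the 16 unmixed P7 cells the rho with Ctrb1 was 0.54 for Cpa1, 0.51 for Klk1, 0.46 for Prss2, 0.31 for 2210010C04Rik and 0.27 for Prss3. With Cpa1 it was then 0.51 for Cel, 0.47 for Ctrl, 0.46 for Prss1 and 0.44 for Cela1. Across the 64 E15.5 cells those among the closest to Ctrb1 were Clps (0.76), Try10 (0.73), Spink1 (0.71) and Cel (0.70), and to Cpa1 they were Ctrb1 (0.60), Pnliprp1 (0.52), Cel (0.50) and Clps (0.50). All cells of a stage share 1 library, and shares of 1 total are tied to each other.

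Cells also differed in what went with Ctrb1 besides enzymes. The share of UMIs from ER folding and translocation genes had a rho with Ctrb1 of -0.66 over the 20 P7 cells (-0.44 over 16 unmixed) and of 0.62 over the 64 E15.5 cells (0.58 over 57 unmixed). The share from cell cycle genes had a rho of -0.25 at P7 and -0.45 at E15.5 (-0.52 over the unmixed E15.5 cells). Depth had a rho with Ctrb1 of -0.05 at P7 (0.57 unmixed) and -0.09 at E15.5 (-0.15 unmixed).

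Beyond the enzymes, RNA of some granule genes was also higher at P7. Of the 20 genes of the zymogen granule and exocytosis list 8 were tested, of which 4 were higher at P7 on the CPM scale (Zg16, Sycn, Gp2 and Cuzd1), 1 was lower (Rab3d, at -1.84 on the CPM scale but 0.61 relative to the median gene without mixed cells) and 3 were within 2-fold (Serpini2, Tmed6 and Vamp8). Zg16, Gp2 and Cuzd1, rare or absent at E15.5, entered only through their P7 level. Their direction was therefore fixed by the minimum on CPM, and that of Sycn was not. Zg16, a granule lectin, stood at 3086 CPM at P7 and 6.74 CPM at E15.5 (log2 8.84, 7.99 to 9.85), with 0 in 58 of 64 E15.5 cells and at least 1169.5 CPM in every P7 cell. Zg16 is not acinar-specific in this tissue, at 139 CPM in other P7 epithelial cells. Sycn, which encodes the granule membrane protein syncollin, stood at 6432 CPM at P7 and 196 CPM at E15.5 (log2 5.04).

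Gp2, the main glycoprotein of the granule membrane, had 90 UMIs in 15 of 20 P7 cells and 0 UMIs at E15.5, at least 219.5-fold higher at P7 against 3 UMIs summed over the E15.5 cells. Cuzd1 had 32 UMIs at P7 and 0 at E15.5, at least 78.0-fold higher on the same terms. Neither had a UMI in any cell of the E15.5 library, so absence cannot be told apart from an entry that was not counted in that library. Serpini2, a serpin of the exocrine pancreas, and Tmed6, of the p24 cargo receptor family, were close in CPM at both stages. Serpini2 stood at 520 CPM at P7 and 536 CPM at E15.5, and Tmed6 at 211 CPM at P7 and 253 CPM at E15.5. Relative to the median gene outside the enzyme list their log2 ratios were 1.46 and 1.24, and on that scale 7 of the 8 tested genes of the list were higher, against 23.6% of all tested genes. That count includes Zg16, Gp2 and Cuzd1, whose direction was fixed by the minimum on CPM. The secretory machinery genes Vamp2, Stx3, Snap23, Syt7, Itpr2 and Itpr3 had too few UMIs to be tested.

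Reg1, which encodes the secreted regenerating protein (lithostathine), had the highest level of any gene outside the enzyme list in P7 acinar cells. Its lowest, median and highest P7 cell had 9022, 61239 and 101384 CPM, against 0, 98.3 and 895 CPM at E15.5, with no overlap and a log2 ratio of 8.01 (7.84 to 8.18). Reg1 also had a UMI in 13.7% of other P7 cells (88.3 CPM) and in 1.04% of other E15.5 cells (3.61 CPM). Its relative Reg3d stood at 215 CPM at P7 and 4.90 CPM at E15.5 (log2 5.46). Tff2, a trefoil peptide of mucous secretions, stood at 1866 CPM at P7 and 19.6 CPM at E15.5 (log2 6.57) and was at 1.83 and 2.47 CPM in other epithelial cells of those libraries. Reg3d and Tff2, rare at E15.5, entered only through their P7 level, so their direction was fixed by the minimum on CPM. In the same list Nupr1, a stress-induced chromatin protein, and Clu, a secreted chaperone, were lower at P7 on the CPM scale, at 399 and 94.2 CPM, against 1462 and 462 CPM at E15.5, while relative to the median non-enzyme gene and without mixed cells their log2 ratios were 0.69 and 0.48.

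**Figure D4:**
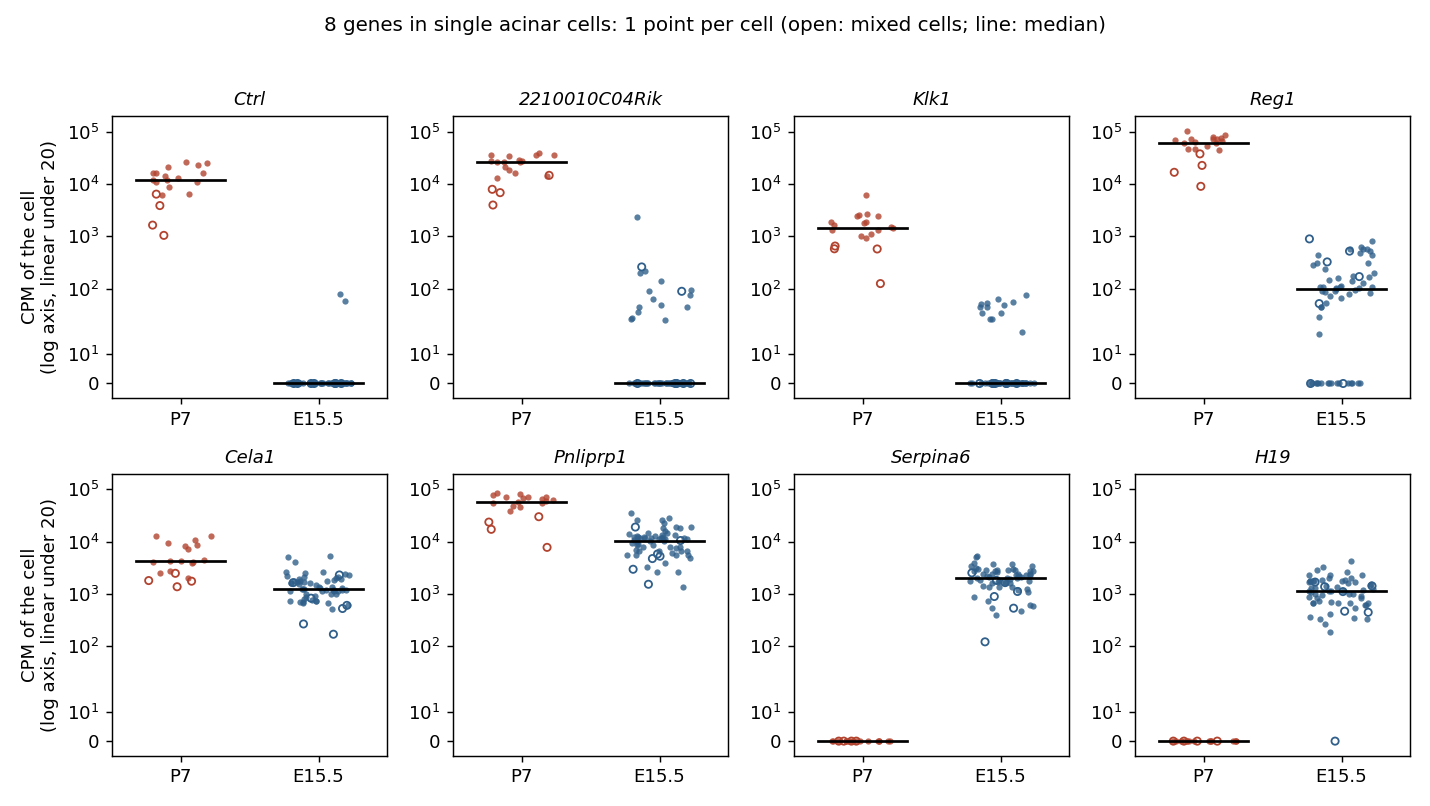
CPM of 8 genes in single acinar cells of P7 (red, left of each panel) and E15.5 (blue, right), on an axis that is logarithmic above 20 CPM, with open circles for mixed cells and a line at the median. Ctrl, 2210010C04Rik, Klk1 and Reg1 separate every P7 cell from every E15.5 cell, Cela1 and Pnliprp1 overlap, and Serpina6 and H19 are at 0 in all 20 P7 cells.

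All genes outside the enzyme list shared what the enzymes left of the total, so their lists are read on 2 scales: CPM, which holds for a value with no scale named, and relative to the median tested gene outside the list, which stood at -1.50 log2 (-2.39 without mixed cells). On the second scale 0 means a gene moved like the median gene, and 23.6% of all tested genes were at least 2-fold higher at P7 and 19% lower (11.5 and 9.52% without mixed cells). On the CPM scale the shares were 10.2% higher and 65.4% lower (2.94 and 92.3% without mixed cells), and a list's count is to be read against these. Of the genes called lower on the CPM scale, 12.8% had 3 or fewer UMIs at P7, and 49.8% without mixed cells, so a ratio of a weak gene is limited by depth.

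The ER folding and translocation genes, which handle secreted proteins, had lower shares of the RNA at P7. Of 34 tested, 1 was higher at P7 and 29 lower on the CPM scale, with a median of -2.11, and without mixed cells 2 were higher and 31 lower, near the 92.3% of all tested genes. The list stood at -0.60 relative to the median gene with 3 higher and 7 lower, and without mixed cells at -0.15 with 5 higher and 6 lower. Hspa5 (BiP), the main ER chaperone, stood at 296 CPM at P7 and 1313 CPM at E15.5, a log2 ratio of -2.15 (-0.64 relative to the median gene). Pdia6, a disulfide isomerase, stood at 67.3 CPM at P7 and 862 CPM at E15.5 (-3.68, and -2.17 relative to the median gene). Sec61b, a subunit of the translocation channel, stood at 242 CPM at P7 and 1664 CPM at E15.5 (-2.78, and -1.28 relative to the median gene).

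Erp27 and Pdia2, which are known as ER proteins of the pancreas, stood apart in that list. Pdia2, the pancreas-specific disulfide isomerase, was the 1 higher gene, with 112, 460.5 and 1726 CPM in the lowest, median and highest P7 cell, against 0, 65.1 and 710.3 CPM at E15.5, a log2 ratio of 1.76 (1.40 to 2.12). Erp27 stood at 359 CPM at P7 and 196 CPM at E15.5, a log2 ratio of 0.87 (1.23 without mixed cells). Both were at 2.07 CPM or less in other epithelial cells of either stage. Xbp1, the transcription factor of the unfolded protein response, had -1.43 on the CPM scale and 0.07 relative to the median gene.

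**Figure D5:**
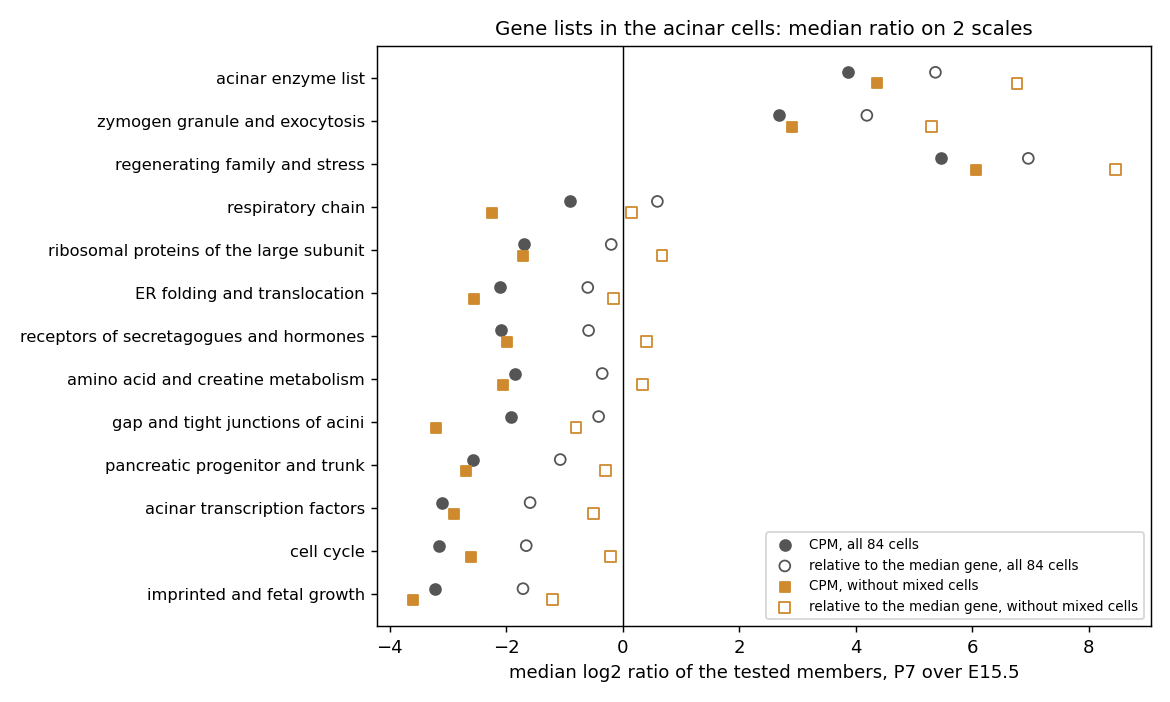
Median log2 ratio (P7 over E15.5) of the tested members of each gene list in acinar cells, for all 84 cells (circles) and without mixed cells (squares), on the CPM scale (filled) and relative to the median gene outside the enzyme list (open). The enzyme, granule and regenerating lists lie right of 0 on both scales, and the imprinted list lies at -1.21 or lower on both. Zg16, Gp2 and Cuzd1 of the granule list and Reg3d and Tff2 of the regenerating list entered only through their P7 level. H19 and Dlk1 of the imprinted list entered only through their E15.5 level. The medians of these lists therefore rest in part on genes whose direction was fixed by the minimum on CPM.

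Few UMIs of the acinar transcription factors were found at P7, and those that could be tested were lower on the CPM scale. Of 15 in the files 3 could be tested and all 3 were lower, as were 65.4% of all tested genes. All 3 were also lower relative to the median gene, and 1 of 3 without mixed cells. At P7 each of the 3 lay under the minimum on CPM, so each could enter only through a higher E15.5 level. Their direction on the CPM scale was therefore fixed by that minimum, and for Ptf1a and Nr5a2 so was the call of lower. Ptf1a had 3 UMIs over 20 P7 cells (13.5 CPM) and 258 UMIs over 64 E15.5 cells (158 CPM). Rbpjl stood at 35.9 CPM at P7 and 306.5 CPM at E15.5 (8 and 500 UMIs, log2 -3.09, -4.31 to -2.10), and Nr5a2, a nuclear receptor of acinar cells, at 17.9 CPM at P7 and 104 CPM at E15.5. Relative to the median gene Rbpjl stood at -1.59 (-1.04 without mixed cells), Ptf1a at -2.05 (-0.51) and Nr5a2 at -1.02 (0.09), so that Nr5a2 changed sign. Bhlha15 (Mist1), which organises the secretory apparatus of acinar cells, had 2 UMIs at P7 and 123 at E15.5.

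Detection of these factors moved with depth. Rbpjl was detected in 7 of 20 P7 cells and 63 of 64 E15.5 cells, and, thinned to 2000 UMIs, in 2 of 20 and in 25 of 63. For Ptf1a the counts were 3 of 20 P7 cells and 55 of 64 E15.5 cells, and 2 of 20 and 20 of 63 after thinning. Other cells had a Ptf1a UMI in 0 of 8371 cases at P7, which allows a share of cells with a UMI of up to 0.0358% and does not limit the share that express it, and in 0.119% of cases at E15.5. At a depth of 2000 UMIs the P7 level of either factor lies below 1 UMI per cell, so no change was read from the thinned shares.

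Of 24 genes of pancreatic progenitors 6 were tested, and all 6 were lower at P7 on the CPM scale with and without mixed cells, where 65.4 and 92.3% of all tested genes were lower. Their median was -2.58. It was -1.07 relative to the median gene with 3 of 6 lower, and -0.30 with 2 of 6 lower without mixed cells. The 6 genes summed to 224 CPM at P7 and 1089 CPM at E15.5 (64.6 and 1060 CPM without mixed cells). Those with hardly a UMI at P7 could enter only through their E15.5 level, so their direction was fixed by the minimum on CPM. Pdx1, the pancreatic homeobox gene, had 0 UMIs at P7 and 83 at E15.5 in acinar cells. Onecut1, a liver and pancreas factor that belongs to the acinar transcription factor list, had 0 at P7 and 112 at E15.5. Of the receptors, Cckar, which receives the secretagogue cholecystokinin, stood at 67.3 CPM at P7 and 300.4 CPM at E15.5, a log2 ratio of -2.16 (-3.01 to -1.42). Relative to the median gene Cckar stood at -0.65, and at 0.40 without mixed cells, which turns its direction. Cckar was at 0.0496 CPM in other P7 epithelial cells and 0.569 CPM in those of E15.5.

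Proliferation genes were lower at P7 on the CPM scale. Of 31 cell cycle genes 11 were tested and all 11 were lower (65.4% of all tested genes were), with a median of -3.16, against -0.82 for the same genes in other epithelial cells. A gene with hardly a UMI at P7 could enter only through its E15.5 level, so the direction of such genes was fixed by the minimum on CPM. Relative to the median gene the list stood at -1.66 with 10 of 11 lower, but without mixed cells at -0.20 with 4 of 13 lower, where the floor of 3 UMIs is 21.5 CPM. Mki67, a marker of cycling cells, had 1 UMI in 20 P7 cells and 469 UMIs in 51 of 64 E15.5 cells (4.49 and 288 CPM). Top2a, a topoisomerase of dividing cells, had 1 UMI at P7 and 371 at E15.5. As a share of a cell's UMIs the list had a median of 0.00993% at P7 and 0.225% at E15.5.

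Imprinted and fetal growth genes were lower in acinar cells and in other epithelial cells alike. In acinar cells 8 of 9 tested were lower on the CPM scale, with a median of -3.22, where 65.4% of all tested genes were lower. Without mixed cells all 9 were lower, near the 92.3% of all tested genes. Relative to the median gene the list stood at -1.71 with 8 of 9 lower (19% of all tested genes were). Without mixed cells it stood at -1.21 with 6 of 9 lower (9.52%). On the CPM scale the same list stood at -2.95 in other epithelial cells. H19, an imprinted noncoding RNA, had 0 UMIs at P7 and 1997 UMIs in 63 of 64 E15.5 cells (1224 CPM), at least 91.0-fold lower at P7 against 3 UMIs. In other epithelial cells H19 stood at 110.2 CPM at P7 and 2752 CPM at E15.5. Dlk1, an imprinted transmembrane regulator of growth, had 0 UMIs at P7 and 527 at E15.5. Both could enter only through their E15.5 level, so their direction in acinar cells was fixed by the minimum on CPM.

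The lowest ratio outside the haemoglobin genes was that of Serpina6, the gene of corticosteroid-binding globulin. It had 0 UMIs in all 20 P7 cells and 3338 UMIs at E15.5, where the lowest, median and highest of 64 cells had 122, 2029 and 5309 CPM. That is at least 152-fold lower at P7, and at least 98.9-fold lower without mixed cells. Other epithelial cells had 4.42 CPM at P7 and 1.20 CPM at E15.5, so the E15.5 signal lay in the acinar cells, and the gene was detectable in the P7 library. Fabp5, a fatty acid-binding protein, stood at 40.4 CPM at P7 and 1307 CPM at E15.5 (log2 -5.02, -6.15 to -4.09, and -3.51 relative to the median gene).

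Among metabolic genes the 2 steps of creatine synthesis parted. Gatm, which encodes the first enzyme, had a median of 255 CPM per P7 cell (0 to 943) and 35.3 CPM per E15.5 cell (0 to 217), a log2 ratio of 2.38 (1.85 to 2.90). Gamt, which encodes the second, stood at 94.2 CPM at P7 and 731 CPM at E15.5, a log2 ratio of -2.96 (-3.65 to -2.34). Relative to the median gene Gatm stood at 3.88 and Gamt at -1.45 (5.10 and -0.43 without mixed cells). Of the 5 tested genes of this list 1 was higher and 4 lower on the CPM scale. Cldn10, a tight junction gene, stood at 89.7 CPM at P7 and 451 CPM at E15.5, a log2 ratio of -2.33 on the CPM scale that turned to 0.44 relative to the median gene without mixed cells. In other epithelial cells it stood at 0.357 CPM at P7 and 2.31 CPM at E15.5.

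Housekeeping lists set the scale for these values. All 30 large-subunit ribosomal protein genes were lower at P7 on the CPM scale, with a median of -1.70, and stood at -0.20 relative to the median gene (0.67 without mixed cells). The 25 respiratory chain genes had a median of -0.91, with 11 of 25 lower, but of -2.25 with 24 of 25 lower without mixed cells, and they stood at 0.59 relative to the median gene (0.15 without mixed cells). Of the stress genes that tissue dissociation can induce, 11 were tested and 3 were lower on the CPM scale, with a median of -0.44, against 1.89 in other epithelial cells. Without mixed cells 8 were tested and 4 were lower, with a median of -1.44. The direction turned relative to the median gene, at 1.07 with 6 higher and 1 lower of 11. Ribosomal protein RNA held a median of 3.50% of a P7 cell's UMIs and 11.2% of an E15.5 cell's.

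Over all tested genes, the 12 highest ratios mixed acinar and intestinal genes. Ctrl, Zg16, 2210010C04Rik and Reg1 stood beside Apoa4, Apoc3, Apoa1, Apoc2, Fabp2, Guca2a, Folr1 and Prap1, of which the apolipoproteins and Fabp2 are genes of fat-absorbing enterocytes. Without mixed cells those 8 fell out of the 12, and Gp2, Pla2g1b, Try4, Dmbt1, Klk1, Pnliprp2, Tff2 and Rnase1 took their places. Apoa4 itself stood at 5356 CPM in all P7 acinar cells and 9155 CPM in other P7 epithelial cells. Of the 200 genes higher in all cells, 44 were also among the 46 higher without mixed cells (22% of the first list and 95.7% of the second). The 12 lowest ratios held 4 haemoglobin genes (Hbb-bs, Hba-a1, Hbb-bt and Hba-a2), which came mostly from 2 mixed E15.5 cells with 21.3 and 25.7% erythroid RNA, and Serpina6, H19, Acta2, Fabp5, Hist1h2ap, Ptn, Tcp1 and Dlk1. Without mixed cells Serpina6, H19 and Fabp5 remained among the 12 lowest, with Meg3, Hsp90aa1, Ldha, Tmsb10, Snrpf, Hmgn2, Tuba1b, Set and Hnrnpab.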

How the data were processed

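The deposited matrices hold raw UMI counts per gene and cell for 22100 genes, made by the authors from 10x Chromium 3′ libraries with Cell Ranger 7.2.0 on mm10/GRCm38, per the submitters' processing notes. The 3 libraries held 116038115 (P7), 93501273 (E15.5) and 94023160 UMIs (E17.5), with cell medians of 14014, 8503 and 6262.5. Counts were summed over acinar cells per library and scaled to CPM, and ratios carry exact conditional binomial 95% intervals for counting error only (Python 3.11.15, scipy 1.17.1). No cell was filtered out, and doublets were scored with Scrublet (scanpy 1.11.5, expected rate 6%) but kept. Other epithelial cells (6173 at P7, 1342 at E15.5) had at least 1 Epcam UMI, at least 0.2% epithelial marker UMIs and under 0.2% Ctrb1. Enzymes and acinar factors are named, apart from an item that is not reported here, of other lists the most abundant and extreme members, and over all genes the 12 highest and 12 lowest. Cuzd1, Vamp2, Vamp8, Snap23, Stx3, Syt7, Itpr2, Itpr3, Reg3d, Pdia6, Erp27, Xbp1 and Pdx1 fall outside that rule and were chosen after their values were seen. Members and lists were chosen with earlier results of these data known. Promoters are from RefSeq (GRCm38.p6, 27 of the enzyme genes matched) and gene positions from GENCODE M21.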

Additional observations from a re-analysis of the deposited data

Results flagged for a closer look

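Ctrb1 RNA was present in the E17.5 library, which held no acinar cell and entered no comparison. There were 238 Ctrb1 UMIs in 60 of 11598 cells, 2.53 CPM (exact Poisson 95% interval 2.22 to 2.87), above the 0.0319 CPM that a count of 0 allows. The cell with the most held 57 of them, 0.441% of its UMIs, with 3 Cpa1 UMIs, which is just under the rule. Clps had 5482 UMIs in 451 cells, Reg1 409 in 102 cells, Cpa1 140 in 97 cells, Prss2 117 in 24 cells and Pnliprp1 82 in 42 cells of that library, while Prss1 had 0. The source of these UMIs was not tested.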

How the results depend on the processing

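Among 99 named genes, no ratio past 2-fold changed sign under any single alternative except with the median ratio of tested genes set to 1, where Tcf3 (0.0403) and Xbp1 (0.0607) turned positive. Genes that turned with that scale and mixed cells left out together are given beside their values. The number of genes higher at P7 (200) became 46 without mixed cells, 113 with cells weighted equally, 328 with the enzyme list out of the total, 457 with the median ratio set to 1, 386 with no minimum on CPM and 63 with a minimum of 200 CPM. The number lower (1288) became 676, 380, 3148 and 316 under the last 4 of these, and 151 without mixed cells and with the median ratio set to 1. The enzyme list's median of 3.86 became 3.37 under a stricter cell rule (Ctrb1 at 2% and Cpa1 at 20 UMIs), 4.37 without mixed cells, 4.80 with the enzyme list out of the total, 5.35 with the median ratio set to 1 and 3.71 with no CPM minimum. The enzyme share at P7 (51.2%) became 71.0% without mixed cells, 59.7% with equal weights and 53.2% without mitochondrial genes. At E15.5 (6.65%) it became 9.13% under the stricter rule, which kept 35 of 64 cells, 6.51% under a looser one, 6.78% without doublets, 6.77% without mixed cells, 6.75% with equal weights and 6.87% without mitochondrial genes. The removal of mixed cells, the joint setting with the median ratio and the definition of mixed cells were chosen after seeing the data. No paired analysis was possible because each stage is 1 library. Depth limits the weak genes: 3 UMIs are 13.5 CPM in P7 acinar cells (21.5 CPM without mixed cells) and 1.84 CPM at E15.5 (2.03 CPM).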
